A study of Homo sapiens with 2 samples.

Results

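RNA polymerase I (Pol I) is the nucleolar enzyme that transcribes ribosomal DNA into the precursor of the large ribosomal RNAs, and 10 genes of its machinery were examined in HT-29, an established line of human colorectal adenocarcinoma, after knockdown of MYC. They encode 7 subunits of the enzyme (POLR1A, POLR1B, POLR1C, POLR1D, POLR1E, CD3EAP, now POLR1G, and ZNRD1, now POLR1H) and 3 initiation factors (UBTF, RRN3 and TAF1D). Genes were taken by function, with earlier results of these data known, as every probe set whose annotation gives 1 of these symbols alone. This gave 29 of the 41097 probe sets that name 1 gene, for 10 of 19775 genes.

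Transcription starts when the factor UBF, the product of UBTF, and the selectivity complex SL1 assemble on the ribosomal DNA promoter and recruit polymerase that carries TIF-IA, the product of RRN3. MYC is known to promote ribosome production, in part through genes transcribed by RNA polymerase II that encode this machinery. The arrays measure polyadenylated messenger RNA of these genes and not ribosomal RNA itself.

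The study had 2 arrays. In 1 the cells had received a pool of siRNAs against MYC, and in the other a pool of siRNAs with no target. Both pools were used at 20 nM, with 24 h of transfection and use of the cells after 48 h. The treatment field of the control sample reads None, and the protocol in the labels names the non-targeting pool, so the array is called control siRNA. Values are MAS5 signals on a linear scale, scaled by the authors to a mean of 100 per array, and are set to 50 here where they lie below 50, as in the methods of the study. All log2 ratios are MYC siRNA divided by control siRNA. With 1 array per condition there is no replicate error, no test was possible and no p-value is given. The spread between probe sets of the same gene is the only error available. Its pooled SD (log2) was 0.27 in dim genes, 0.23 in genes of middle signal and 0.18 in bright genes (1347, 1346 and 1347 genes), and it leaves out variation between cultures.

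MYC, the targeted gene, went from 1963 in the control array to 1640 in the knockdown array, a log2 ratio of -0.26 in its only probe set. At the RNA level the check of the knockdown was therefore a 1.20-fold difference, and 21.6% of the 8917 genes measured had a ratio as low. By their brightest probe sets, all Pol I genes but UBTF had a lower ratio than MYC. After a loess fit of the ratio on mean signal the log2 ratio of MYC was -0.16, and 29.8% of genes were as low. These arrays alone thus did not set MYC RNA apart from many other genes. The study also probed MYC protein by immunoblot after MYC siRNA, and reported knockdown and decreased cell growth. Of 10 markers of colon epithelium 8 were above 50, among them EPCAM and KRT20, whereas the intestinal transcription factors CDX1 and CDX2 were under 50 in both arrays. With MYC siRNA 6 of the 8 were higher and 2 lower (median log2 ratio 0.28), the higher ones including CEACAM5, from 281 to 613, and LGALS4, from 1771 to 3056, and their part in the results on Pol I genes was not tested. Of 13 markers of other cell types with a probe set, 12 were under 50 in both arrays, and COL1A1 was above it in 1 of its probe sets.

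All 10 Pol I genes were lower with MYC siRNA in the brightest of their probe sets, none by 2-fold. The median log2 ratio was -0.40, a 1.31-fold lower signal, against 0.03 over the 8917 genes measured, meaning above 50 in 1 array or both. Of those 8917 genes, 46.5% were lower at all, 5.72% were lower by at least 1.5-fold and 0.695% by at least 2-fold. TAF1D, POLR1B and POLR1E passed 1.5-fold, and POLR1A, POLR1D, POLR1G, POLR1C and RRN3 lay between 1.30-fold and 1.39-fold. POLR1H was 1.22-fold lower and UBTF 1.04-fold. In a culture extracted as a whole, fewer cells that express a gene and less RNA per cell cannot be told apart.

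At the level of probe sets, 21 of the 29 passed 50 in 1 array or both. Of these, 19 were lower and 2 higher with MYC siRNA, and 6 were lower by at least 1.5-fold. Among all probe sets that name 1 gene and lie above 50, 48.4% were lower and 5.68% were lower by at least 1.5-fold. The other 8 gave no ratio, 4 of them from POLR1H, 2 from POLR1E and 1 each from POLR1A and UBTF.

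**Figure D1:**
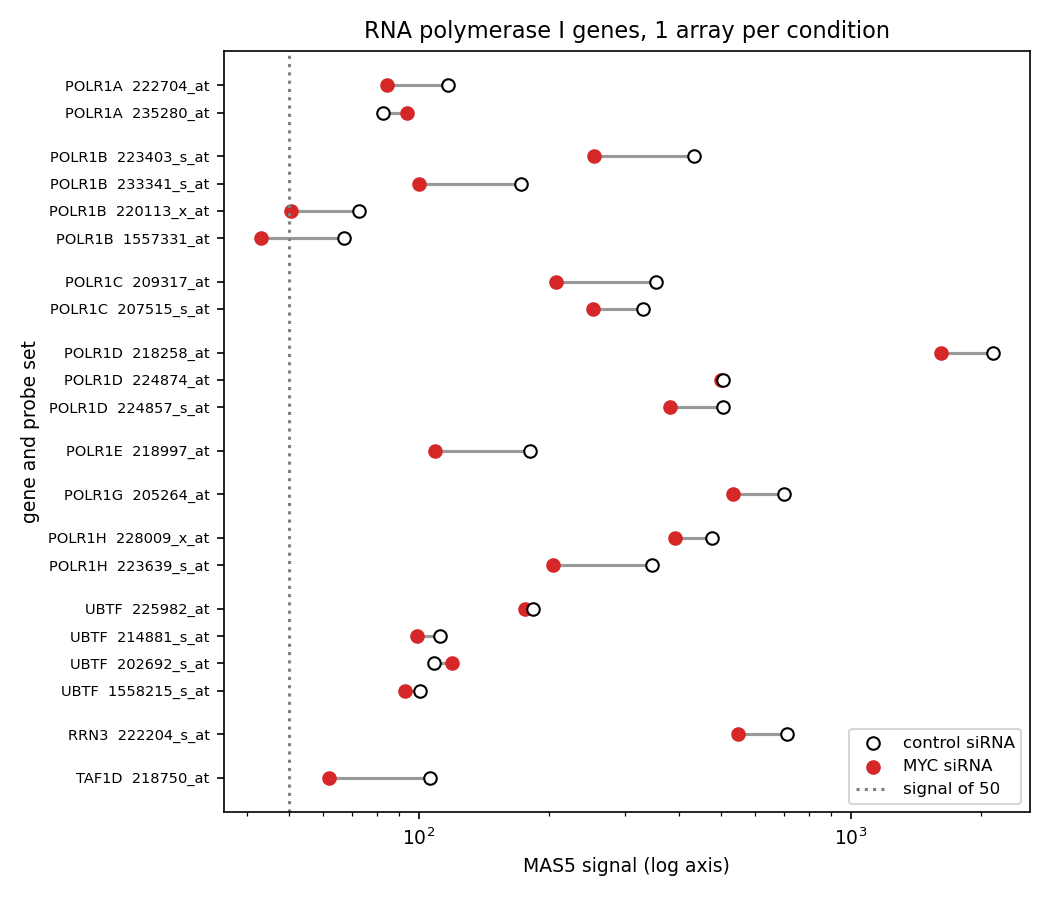
MAS5 signal (x axis, log scale) of the 21 probe sets that passed 50, with control siRNA as open circles and MYC siRNA as red circles, 1 array each, and the signal of 50 as a dotted line. In 19 of 21 rows the red circle lies left of the open one, and the exceptions are 1 probe set each of POLR1A and UBTF.

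POLR1A and POLR1B encode the largest and the second largest subunit, which together form the active centre. Each of the 4 probe sets of POLR1B was lower. Its brightest probe set went from 433 with control siRNA to 254 with MYC siRNA, a log2 ratio of -0.77. The second went from 173 to 100.1 (log2 ratio -0.79), and the third from 72.4 to 50.5 (log2 ratio -0.52). In the fourth, 66.9 with control siRNA became 43.0, under the limit, so its 1.34-fold is a lower bound. The mean log2 ratio of POLR1B was -0.62 ± 0.18 (SD, n = 4 probe sets), with the fourth at its bound.

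The 2 measured probe sets of POLR1A went in opposite directions. One went from 117 with control siRNA to 84.2 with MYC siRNA (log2 ratio -0.48), and the other from 82.4 to 93.8 (log2 ratio 0.19). Their distance of 0.66 on the log2 scale exceeded the SD between probe sets of equally dim genes, and the third probe set was at 45.1 and 49.2. The direction of POLR1A was therefore not settled by these arrays, although its brightest probe set places it among the lower genes.

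POLR1C and POLR1D form the subassembly on which both Pol I and RNA polymerase III (Pol III) are built, so they do not belong to Pol I alone. In POLR1C both probe sets were lower, from 331 with control siRNA to 253 with MYC siRNA in the one with the higher mean signal (log2 ratio -0.38) and from 355 to 208 in the other (log2 ratio -0.77). The second would have placed POLR1C among the genes past 1.5-fold, and which of them counts as the brighter one rests on a small margin. POLR1D went from 2136 to 1616 (log2 ratio -0.40) and from 505 to 382 (log2 ratio -0.40) in a pair of probe sets. In the remaining one, 505 with control siRNA stood against 500.3 with MYC siRNA, a log2 ratio of -0.01. Thus 2 of the 3 probe sets of POLR1D had the same log2 ratio to 2 decimals, and the remaining one was nearly level.

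POLR1E and POLR1G (PAF53 and PAF49) form a heterodimer found only in Pol I, which is related to general transcription factors of RNA polymerase II. POLR1E went from 181 with control siRNA to 109 with MYC siRNA, 1.67-fold lower (log2 ratio -0.74), in the only probe set above 50. POLR1G went from 700 to 535, 1.31-fold lower (log2 ratio -0.39), in the single probe set it has. Each value rests on 1 probe set, and the difference between these partners was not tested.

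POLR1H encodes the small subunit that takes part in cleavage of the nascent transcript and in termination. Its brightest probe set went from 477 with control siRNA to 392 with MYC siRNA (log2 ratio -0.29) and the other measured one from 346 to 204 (log2 ratio -0.76). Both were lower, but the size of the difference depended on the probe set, and the brightest one carries the _x_at suffix that marks probes able to bind several transcripts. The mean log2 ratio of POLR1H was -0.52 ± 0.34 (SD, n = 2 probe sets).

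The 3 initiation factors spanned log2 ratios from -0.78 to -0.06, a wider range than the -0.77 to -0.29 of the 7 subunits. UBTF, whose product binds along the ribosomal DNA and keeps it accessible, was nearly level. Its 4 measured probe sets went from 184 to 176, from 112 to 99.0, from 108 to 119 and from 101 to 93.0, with log2 ratios between -0.18 and 0.13 (mean -0.05 ± 0.13, SD, n = 4 probe sets). In the order of all 8917 genes from the lowest ratio up, UBTF was at place 3567, near the middle. RRN3, the factor that couples Pol I initiation to growth signals, went from 713 with control siRNA to 547 with MYC siRNA (log2 ratio -0.38). A further probe set, which names RRN3 together with its pseudogenes RRN3P1 and RRN3P2, went from 290 to 244 (log2 ratio -0.25). TAF1D, a subunit of SL1, went from 106 to 61.9, 1.71-fold lower, with a log2 ratio of -0.78 that was the lowest of all 10 genes. That MYC siRNA signal is close to 50, and with signals under 100 set to 100 the log2 ratio was -0.08. The TAF1D gene also hosts small nucleolar RNAs in its introns, and 2 probe sets that name it together with them went from 1422 to 917 (log2 ratio -0.63) and from 1045 to 725 (log2 ratio -0.53). TAF1D was thus lower in all 3 probe sets that name it.

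**Figure D2:**
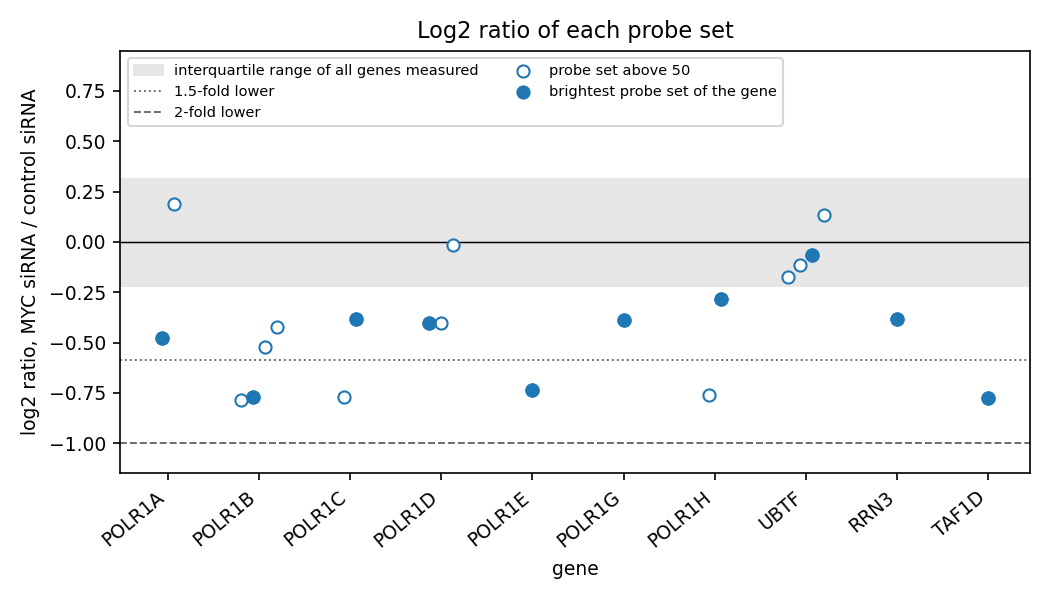
Log2 ratio, MYC siRNA to control (y axis), of each probe set above 50 (open circles) and of the brightest probe set of each gene (filled), for the 10 genes (x axis). The grey band is the interquartile range of the 8917 genes measured, and the filled circles of all genes but UBTF lie below it, TAF1D lowest at -0.78.

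MYC binds DNA with its partner MAX at a hexamer called the E-box, so the promoters of these genes were searched for CACGTG and for the variant CACGCG on both strands. RefSeq windows of GRCh38.p14, from 250 bases before to 50 bases after a start site, were at hand for 9 of the 10 genes (13 windows). CACGTG was found in POLR1G alone, beginning 12 bases before its start site, which is 7.69% of the windows against 10.0% of 10885 windows of measured genes and 7.26% of all 35116 windows. CACGCG was found in 6 windows of 5 genes (POLR1A, POLR1C, POLR1D, UBTF and RRN3). This is 46.2% of the windows, against 17.9% of the windows of measured genes and 11.4% of all windows. The windows of RRN3 overlap each other and hold the same matches. By gene, CACGCG was in 55.6% of the 9 genes, against 23.5% of 7482 measured genes. The 60 bases before the start site of POLR1G, POLR1C, RRN3 and UBTF are shown 5′ to 3′ on the strand of the gene because each holds a match, which is in capitals. They lie at chr19:45406584-45406643 (plus strand), chr6:43517029-43517088 (plus strand), chr16:15094336-15094395 (minus strand) and chr17:44220883-44220942 (minus strand).
POLR1G: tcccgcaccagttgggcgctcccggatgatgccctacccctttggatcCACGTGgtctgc
POLR1C: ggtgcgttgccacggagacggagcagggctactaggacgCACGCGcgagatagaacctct
RRN3: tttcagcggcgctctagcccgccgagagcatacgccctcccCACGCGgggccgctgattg
UBTF: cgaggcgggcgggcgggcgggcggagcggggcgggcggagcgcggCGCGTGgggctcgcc
In UBTF the match is on the opposite strand, so its capitals are the reverse complement of CACGCG. POLR1B, POLR1H and TAF1D held neither hexamer in their windows. POLR1E was the gene without a window and was not searched. Whether a match goes with the log2 ratio was not tested. A match is a description of these letters and no evidence of binding.

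The complete enzyme has 13 subunits. The others besides the 7 above are POLR1F, of the stalk that contacts RRN3, and 5 small subunits common to Pol I, RNA polymerase II (Pol II) and Pol III. Of the 13 genes 12 were lower and 1 higher, with a median log2 ratio of -0.39. POLR1F went from 309 with control siRNA to 238 with MYC siRNA (log2 ratio -0.38), near POLR1C, POLR1G and RRN3. Among the common subunits, POLR2F went from 1048 to 523 and was the only subunit past 2-fold (2.01-fold lower), and POLR2H went from 1092 to 640 (1.71-fold lower). After a loess fit of the ratio on mean signal POLR2F was at a log2 ratio of -0.95, no longer past 2-fold. With that fit POLR2K was at 0.07, so 11 of the 13 subunits were lower. The median of the 5 common subunits was then -0.12. POLR2E had a log2 ratio of -0.22. POLR2K, at 1634 and 1610, and POLR2L, at 3725 and 3932, were level within the spread between probe sets (log2 ratios of -0.02 and 0.08). The common subunits therefore held both the lowest ratio of the enzyme and the highest.

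SL1 is made of TBP, which also serves Pol II and Pol III, and 4 TAF1 proteins. TAF1D and TAF1A, the latter from 177 with control siRNA to 123 with MYC siRNA (log2 ratio -0.53), were lower. TBP and TAF1C had log2 ratios of -0.11 and 0.00, TAF1C being only just above 50. TAF1B was higher, from 148 to 186 (log2 ratio 0.33). TTF1, which binds the terminators of the ribosomal DNA, went from 208 to 183 in its brightest probe set (log2 ratio -0.19) and from 161 to 202 in the other (0.33), so its direction was not settled. Lower signals were thus found in part of SL1 and not in all of it (median log2 ratio -0.11). POLR1F, TTF1 and the SL1 genes without TAF1D form the list of other Pol I genes. Of these, 5 were lower and 1 higher, none past 1.5-fold, with a median log2 ratio of -0.15.

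For the other polymerases, all 7 Pol II subunits were lower, none of them past 1.5-fold (median log2 ratio -0.21). After the loess fit all 7 were still lower, with a median of -0.14. The lowest was POLR2D at -0.53, and the brightest gene, POLR2G, went from 1913 with control siRNA to 1698 with MYC siRNA (log2 ratio -0.17). Of 9 measured Pol III subunits 8 were lower (median -0.50). Under the processing alternatives listed below this median ran from -0.51 to -0.29. With a floor of 100 it was -0.29, against -0.38 for the 10 Pol I genes, so the order of these lists depended on the processing. CRCP, counted as lower, had log2 ratios of -0.04 and 0.22 in its probe sets, so its direction was not settled. POLR3B went from 227 to 133.2 (1.70-fold lower), and POLR3G from 106 to 41.1, at least 2.11-fold lower. POLR3GL, the paralogue that takes the place of POLR3G in the enzyme of many differentiated cells, was higher, from 76.9 to 146 (1.89-fold). The brightest, POLR3K, had a log2 ratio of -0.50. With 1 array per condition, whether the 10 Pol I genes differ from the subunits of Pol II or Pol III could not be tested.

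Nucleolar proteins that act on Pol I were a further group. Of 12 regulators of ribosomal DNA transcription or chromatin, 10 were lower and 2 higher (median log2 ratio -0.42), and 5 were past 1.5-fold. TCOF1, the treacle protein that holds UBF and Pol I in the nucleolus, went from 213 with control siRNA to 106 with MYC siRNA and was just past 2-fold lower. NOLC1, a partner of treacle, went from 2040 to 1107 (1.84-fold lower), the nucleolar protein NCL from 5048 to 3219 (1.57-fold) and the helicase DDX21 from 4108 to 2661 (1.54-fold). PHF8, a histone demethylase, went from 75.6 to 46.5 and was at least 1.51-fold lower. After the loess fit NCL and DDX21 had log2 ratios of -0.50 and -0.49, and 3 of the 12 regulators were past 1.5-fold. The brightest gene, NPM1, had a log2 ratio of -0.37. CAVIN1, a caveolar protein also described as a Pol I release factor, went from 674 to 967 (log2 ratio 0.52), and the deacetylase SIRT7 from 261 to 284 (0.12).

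The t-UTP proteins join early processing of the ribosomal RNA precursor to its transcription. All 6 genes were lower, 4 of them past 1.5-fold, and the median log2 ratio was -0.62. WDR43 went from 346 with control siRNA to 195 with MYC siRNA (1.78-fold lower) and WDR75 from 332 to 193 (1.72-fold lower). UTP15 and HEATR1 were each 1.53-fold lower. The brightest, NOL11, went from 1663 to 1322 (1.26-fold). The difference between this median and that of the 10 Pol I genes was not tested.

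**Figure D3:**
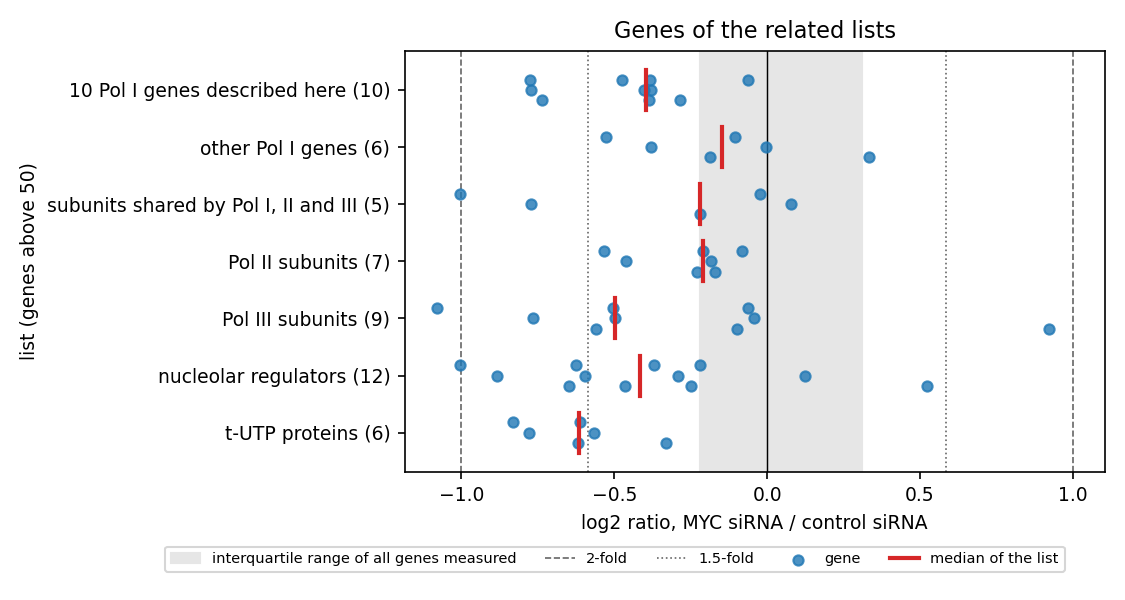
Log2 ratio, MYC siRNA to control (x axis), for every gene measured (blue points) in 7 lists (y axis, number of genes in brackets), with list medians as red bars and the interquartile range of all genes measured as a grey band. Points of 1 list are spread vertically only to separate them. The median of the 10 Pol I genes is -0.40, and those of the other lists run from -0.15 for other Pol I genes to -0.62 for t-UTP proteins.

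The ratio of the arrays depended on the signal, and the log2 ratios were therefore also taken after a loess fit on mean signal. All 10 genes were still lower (median -0.37), and TAF1D, POLR1B and POLR1E were still those past 1.5-fold, where 5.52% of all genes measured were. POLR1D, the gene with the brightest probe set among the 10, changed from -0.40 to -0.30, and UBTF from -0.06 to -0.09. Of the 6953 genes whose mean signal lay between those of the dimmest and brightest of the 10 (83.9 to 1876), 47.5% were lower and 6.43% were past 1.5-fold lower (median log2 ratio 0.02). POLR1B and TAF1D were among the lowest 2.30% and 2.22% of all genes measured, POLR1E among the lowest 2.69%, and POLR1H at 19.7%.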

How the data were processed

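RNA of HT-29 cells with control siRNA or MYC siRNA was hybridized to 1 Affymetrix expression array each. The authors deposited linear intensity values for 54675 probe sets, computed with the MAS5 algorithm in affy 1.40.0 per the labels and scaled to 100. Leaving out the top and bottom 2%, each array averaged 100. Signals exceeded 50 in 16074 and 16571 probe sets. The number of arrays limits the precision.

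Probe sets were named by the GEO platform annotation, with symbols updated through gene identifiers to RefSeq of GRCh38.p14. Of them 1801 named several genes and 11777 were not listed. Signals under 50 were set to 50 and log2 ratios taken, with no ratio where both arrays were at or under 50 (37548 probe sets). A gene took its probe set with the highest mean signal. Named are the 10 genes, MYC and, of the 6 related lists, the brightest gene and those past 1.5-fold; further genes of the related lists, and the markers, were named after their values were seen. POLR3D was under 50 in both arrays. The genes and lists were chosen with earlier results of these data known. The calculations were tested on simulated arrays. The genes changed there were all brighter in the control array than TAF1D, POLR1A, POLR1E and UBTF. The simulated noise was smaller than the spread between probe sets. Alternatives were floors of 25 and 100, no floor with 1 added, median centring, quantile normalization and loess (span 0.3). Others were means or sums over probe sets, probe sets without an _s_at, _x_at or _a_at suffix and a brighter array of at least 100. A lower (1.25) and a higher (3) fold were also tried. Python 3.11.15, numpy 2.4.6, pandas 2.3.3, statsmodels 0.14.6 and matplotlib 3.10.9 were used.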

Additional observations from a re-analysis of the deposited data

How the results depend on the processing

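All measured Pol I genes were lower under each of the 11 alternatives, with a median log2 ratio between -0.46 and -0.37. The number past 1.5-fold was 2 or 3 in each of them, but only POLR1E was past it in all. With a floor of 100 TAF1D dropped out (log2 ratio -0.08). Without the suffixed probe sets POLR1B, there at a bound, dropped out and POLR1C came in. At the lower fold threshold tried it was 8, and at a fold of 3 it was 0. Without probe sets of suffix _s_at, _x_at or _a_at, 8 genes were left and 9 of their probe sets were lower and 1 higher. In that setting SL1 had 2 lower genes and a median of -0.44, and 2 of the other Pol I genes, 4 Pol II subunits and 5 nucleolar regulators were lower, because fewer genes had a probe set. The number of higher probe sets was 1 with a floor of 100 or a brighter array of at least 100. POLR1A had a log2 ratio of -0.23 with a floor of 100, -0.14 as a mean and -0.11 as a sum over probe sets. Without the suffixed probe sets POLR1C had -0.77 and POLR1B -0.42. The latter is a bound, because its only probe set there was at 43.0 with MYC siRNA and was set to 50. POLR1H had -0.52 as a mean. With the probe sets that name several genes, an alternative chosen after seeing the data, TAF1D had -0.63. No paired analysis was possible because each condition has 1 array. Signals close to 50 limit TAF1D, POLR1A and part of POLR1B.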

Other observations

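Several genes of the nucleolar group had further probe sets with the same direction as the brightest one. The other probe sets of NOLC1 went from 809 with control siRNA to 324 with MYC siRNA (log2 ratio -1.32) and from 281 to 147 (-0.94). CAVIN1 was higher in its other 2 probe sets too, with log2 ratios of 0.64 and 0.23. TCOF1 had a log2 ratio of -0.84 in its second probe set, which went from 173 to 97.0. The second probe set of POLR3G went from 59.5 to 22.6, at least 1.19-fold lower.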
